A study of Mus musculus with 2 samples.

Results

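The genes described here encode the proteins of the large subunit of the cytosolic ribosome. They were chosen by name, as the protein-coding genes of GENCODE vM1 (mm9) called Rpl plus digits with an optional a or l, together with Rplp0, Rplp1 and Rplp2. The rule gave 48 genes of 22367, and 46 of them lay within 1 kb of an anchor (a region occupied by RNA Pol II that takes part in an interaction) in both libraries. RNA Pol II ChIA-PET ligates DNA fragments held near each other on chromatin that an antibody to RNA Pol II has pulled down, and each paired-end tag (PET) that links 2 anchors counts as 1 contact.

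The cells were mouse ESCs derived from blastocysts of CreERT2 mice crossed to Roninflox/flox mice, grown with serum and LIF on gelatine, so that both groups carried the inducible Cre and both floxed alleles. Control cells received ethanol for 4 days and Ronin knockout cells received tamoxifen for 4 days. Tamoxifen itself was given to the knockout cells alone, so an effect of the drug and an effect of losing Ronin (Thap11, a THAP-domain protein bound at promoters of housekeeping genes) cannot be told apart here. Each group is 1 set of interactions that the authors merged from 2 experiments, so there was no spread between replicates, and all intervals and tests cover counting error only and compare these libraries rather than the conditions.

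The ribosome translates mRNA, and its large subunit joins amino acids and feeds the growing chain through an exit tunnel. Each of its proteins is needed in nearly equal numbers, their genes are scattered over the genome, and they rank among the most heavily transcribed genes in dividing cells. Many of them carry small nucleolar RNA (snoRNA) genes in their introns, whose products guide the chemical modification of ribosomal RNA.

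Several promoters are shown first, since RNA Pol II sat at the start of every gene with PETs (46 of 46 in both libraries). The 250 bases upstream of the start in RefSeq (GRCm38.p6) are given for Rpl24, which had the smallest adjusted p-value, for Rpl22, which kept the smallest share of its PETs in knockout cells, and for Rplp0, which kept the largest. They lie on the plus strand at chr16:55966025-55966274, chr4:152324186-152324435 and chr5:115559217-115559466. In mm9 the Rpl22 stretch ends at chr4:151698544, while the vM1 start of Rpl22 is at 151699851. The Rpl22 stretch thus precedes another start than the one used to place PETs. Capitals mark any match, on either strand, to TCTCGCGA (an element of housekeeping promoters), to CCGGAA (the Ets factor site), to AAGATGG (the Yy1 site), to TATAAA (the TATA box), to GGGCGG (the Sp1 site) or to the core of the motif that Ronin binds. No motif overlaps another in these stretches, and Rpl24 held no match.
Rpl24: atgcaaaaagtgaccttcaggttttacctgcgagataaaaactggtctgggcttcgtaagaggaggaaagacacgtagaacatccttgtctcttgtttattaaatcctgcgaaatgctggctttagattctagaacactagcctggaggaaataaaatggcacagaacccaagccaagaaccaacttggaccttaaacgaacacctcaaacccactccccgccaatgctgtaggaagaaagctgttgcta
Rpl22: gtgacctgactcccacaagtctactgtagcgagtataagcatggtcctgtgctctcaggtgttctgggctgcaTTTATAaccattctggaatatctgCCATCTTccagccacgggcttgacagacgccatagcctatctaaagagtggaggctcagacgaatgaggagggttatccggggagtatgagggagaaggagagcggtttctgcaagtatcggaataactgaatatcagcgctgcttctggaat
Rplp0: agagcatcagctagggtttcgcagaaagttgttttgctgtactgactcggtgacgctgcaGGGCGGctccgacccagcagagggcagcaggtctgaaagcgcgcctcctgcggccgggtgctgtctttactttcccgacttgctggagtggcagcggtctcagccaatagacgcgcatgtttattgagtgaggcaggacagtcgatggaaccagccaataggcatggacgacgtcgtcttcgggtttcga

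The promoter table held 36 of the 48 genes. Each gene was given 1 RefSeq start, and those of Rpl13a, Rpl18 and Rpl22 lay over 1 kb from the vM1 start. Among those with no entry were Rpl3, Rpl7, Rpl8, Rpl17, Rpl21, Rpl23a, Rpl29, Rpl30, Rpl32, Rpl36 and Rplp1. TCTCGCGA occurred in 5 of the 36 (13.9%) and in 1.28% of all 14861 protein-coding gene promoters of that length. The 5 sites are shown with capitals on the matched letters, which for Rpl12 and Rpl26 are overlapping matches on both strands.
Rpl12: gggccagcggtTCTCGCGAGAgctgagctt
Rpl26: cgctccgagacTCTCGCGAGAtctcgcggc
Rpl27a: cgcctgctaccTCGCGAGActtcgtgagct
Rpl35: ggtgttgctcaTCGCGAGActcagtttccc
Rpl7a: agggcgcctgcTCTCGCGAtatctgcggcc

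In GRCm38.p6 these windows are chr2:32961647-32961676 for Rpl12, chr11:68901529-68901558 for Rpl26, chr7:109519163-109519192 for Rpl27a, chr2:39005302-39005331 for Rpl35 on the minus strand and chr2:26910744-26910773 for Rpl7a. CCGGAA was found in 12 of the 36 (33.3%) against 15.5% of all promoters. GGGCGG was found in 20 (55.6%) against 44.0%. TATAAA was rare, in 2 of the 36 (Rpl22 and Rpl39, 5.56%) against 11.9%, and AAGATGG was found in Rpl22 alone (2.78%) against 4.17%. The Rpl22 matches lie in the stretch away from its vM1 start. A transcript start on C followed by 4 pyrimidines is known from mRNAs whose translation follows growth signals. It was seen at 6 of the 36 (16.7%) against 2.24% of all promoters. This count depends on the exact base annotated as the start in RefSeq. It therefore does not show that the other genes lack the arrangement. The median GC content of the 250 bases was 57.8% against 56.0%.

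The core of the Ronin motif was in 0 of the 36 promoters and in 1.49% of all promoters. Genes with no entry in the promoter table were outside that count, among them Rpl7, which carries a copy upstream of its start. The 0 therefore does not show that the promoters of the whole group lack the motif. It was present in 4 of the 49 control anchors of these genes, as 5 copies in 0.973 Mb of anchor sequence (5.14 copies per Mb), against 542 copies in 180.4 Mb of all control anchors (3.004 copies per Mb). These counts were not tested. The copies in the anchors of Rpl7 and Rpl36 are shown from mm9 with the core in capitals, since one lies at the start of a large-subunit gene and the others at the start of a neighbour.
Rpl7: gacgcatgCTGGGACTTGTAGTtcacatcc
Rpl36 anchor, copy 1: tgagactcCTGGGAAATGTAGTggtcgctg
Rpl36 anchor, copy 2: gaaggctcCTGGGAAATGTAGTctggaggc

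The Rpl7 copy (chr1:16094821-16094850, minus strand) is 86 bases upstream of the Rpl7 start, outside annotated exons. Both copies in the Rpl36 anchor flank the start of the neighbouring gene 2410015M20Rik (chr17:56749163-56749192 in its exon, 23 bases inside the gene, and chr17:56749299-56749328, 113 bases upstream), over 3.5 kb from Rpl36. Rpl7 had 69 control and 12 knockout PETs (17.4%, 8.57 to 32.4), and Rpl36 had 81 and 26 (32.1%, 19.8 to 50.5). The intervals of these genes overlapped, on either side of the median gene of the group (28.2%).

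In control cells each of the 46 genes had many PETs, most of them the only PET of their interaction. The number of PETs per gene ran from 44 to 243 with a median of 90, against a median of 16 over the 12565 protein-coding genes with control PETs, and all 46 lay above that median. Genes at the highest decile, which began at 92 PETs, included 22 of the 46. In knockout cells the PETs per gene ran from 4 to 80 with a median of 25 against 7 over 11397 genes. There 45 of the 46 lay above the median, and 10 were at the highest decile, which began at 35 PETs. Distinct partner anchors had a median of 89 per gene (44 to 234) in control and of 25 (4 to 80) after knockout, so nearly every PET of these genes led to a different partner. Counting only interactions of at least 2 PETs, the medians were 1.5 and 0. The paper took 3 independent PETs as its mark of a high-confidence interaction, and 10 of the 4420 control interactions of these genes had at least 3.

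The anchors of these genes were wide. The 49 control anchors had a median width of 16.4 kb, against 3.28 kb over all 27757 anchors, and 43 of the 46 genes lay wholly inside their anchor. All 49 overlapped a knockout anchor. Over the 46 genes, control PETs and anchor width had a Spearman rho of 0.637 and a Pearson r of 0.496, given as a description because both depend on the same peak calls. An anchor often served several genes, since 39 of the 46 shared a control anchor with another protein-coding gene, up to 6 of them at Rpl7a, Rpl18 and Rpl23a. PETs at a shared anchor cannot be assigned to one of its genes. The 7 genes whose anchor held no other protein-coding gene were Rpl3, Rpl6, Rpl11, Rpl26, Rpl34, Rpl37a and Rpl39.

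Counted once per interaction, these genes had 4543 control and 1293 knockout PETs. Knockout cells thus kept 28.5% (95% exact interval 26.7 to 30.3) of the control PETs, whereas the whole knockout library held 41.8% (41.4 to 42.2) of the control library, 65276 PETs against 156097. The whole-library figure is raised by a few pairs of anchors with many PETs. Pairs of 10 or more PETs, chosen in each library on its own counts, numbered 218 in control and 171 in knockout cells. Knockout PETs in such pairs came to 78.7% (77.2 to 80.1) of the control PETs in such pairs. Without them the knockout library held 34.7% (34.4 to 35.1) of the control PETs. The large-subunit genes lay below either figure, with intervals that did not overlap. The difference in total PETs between the libraries could come from sequencing or ligation as well as from the cells, and these cannot be told apart. Nor can fewer cells with a contact be told from fewer contacts per cell in a bulk library.

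**Figure D1:**
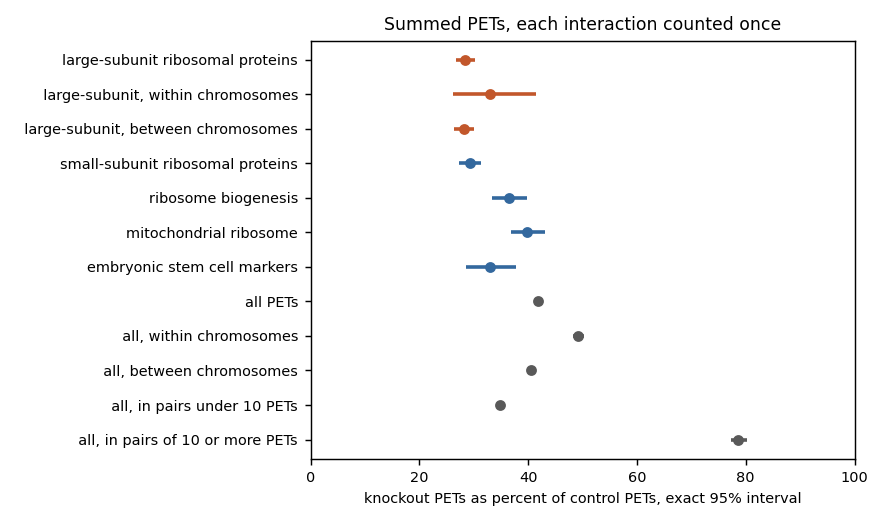
Knockout PETs as percent of control PETs (horizontal axis, percent, lines are exact 95% intervals) for the large-subunit genes (orange), other gene lists (blue) and all PETs (grey). The large-subunit genes at 28.5% and the small-subunit genes at 29.3% lie to the left of all PETs (41.8%) and of the PETs in pairs under 10 PETs (34.7%).

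The fall was of a similar size within and between chromosomes. Within chromosomes, PETs at these genes numbered 312 in control and 103 in knockout cells (33.0%, 26.2 to 41.4) against 49.2% over all such PETs. Between chromosomes they numbered 4231 and 1190 (28.1%, 26.4 to 30.001) against 40.4%. Restricting the count to anchors with no other protein-coding gene left 759 and 203 PETs (26.7%, 22.8 to 31.3). The intervals of these 3 ratios overlapped.

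The small-subunit genes, named Rps plus digits, stood close to the large-subunit genes. All 32 had PETs in both libraries, with 3646 in control and 1067 in knockout cells (29.3%, 27.3 to 31.3), and 4 passed an exact binomial test of each gene against the knockout share of all PETs as lower (background 2.21% of all genes) and none as higher (1.94%). With the share from pairs under 10 PETs none of the 32 was lower and 1 was higher, so the direction of these calls turned. These counts share some anchors with the large-subunit genes, for example that of Rps2 and Rpl3l. The mitochondrial ribosome genes kept 39.8% (36.9 to 43.0), with 76 of 77 measured, none lower and 1 higher under either share. The 24 ribosome biogenesis genes kept 36.4% (33.3 to 39.8), with 1 lower and 1 higher, or none lower and 2 higher with the share from pairs under 10 PETs.

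The ESC label was checked on marker genes. All 13 embryonic stem cell markers had PETs in both libraries (845 and 278 in sum, 32.9%), of 8 fibroblast genes Pdgfra alone had any (2 and 0), and the primitive endoderm genes had 10 and 8 in sum. Thap11, which encodes Ronin, had 109 and 46 PETs, but contacts at the locus do not show whether the floxed part was deleted, so loss of Ronin was not checked with these data.

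Gene by gene, all 46 had fewer PETs in knockout than in control cells. So did 96.6% of the 6731 genes with at least 20 PETs over both libraries, while 2.87% had more and 0 of the 46 did. The knockout library was the smaller one. An exact two-sided binomial test was therefore run for every gene against the knockout share of all PETs, with Benjamini-Hochberg adjustment over 12808 genes. It called 6 of the 46 lower, where the background was 2.21% of all genes, and none higher, where the background was 1.94%. Against the share from pairs under 10 PETs, it called 2 lower (Rpl21 and Rpl24, background 0.82%) and none higher (background 2.85%). These backgrounds include genes with too few PETs to pass. Among the 3692 genes with at least 49 PETs over both libraries, the lowest number at any of the 46, the share called lower was 6.66% and the share called higher 3.68%, or 2.55% and 5.5% with the share from pairs under 10 PETs. By size alone, 7 of the 46 were at or past 2-fold lower after scaling to equal totals (background 11.3%), and none was 2-fold higher (background 4.68%). Scaled to the pairs under 10 PETs, 3 were 2-fold lower (Rpl21, Rpl22 and Rpl24, background 6.43%) and none was 2-fold higher (background 7.76%). The median gene kept 28.2% of its control PETs (range 8.89% to 45.5%), against a median of 35.7% over the genes with at least 20 PETs. Among genes of a like number of PETs, the 25 large-subunit genes with 100 to 200 PETs over both libraries kept a median of 27.5%, and all 1176 genes in that range kept 33.7%. Counting each interaction once, which changes the counts as well as the null share, left Rpl24 as the one gene called lower.

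**Figure D2:**
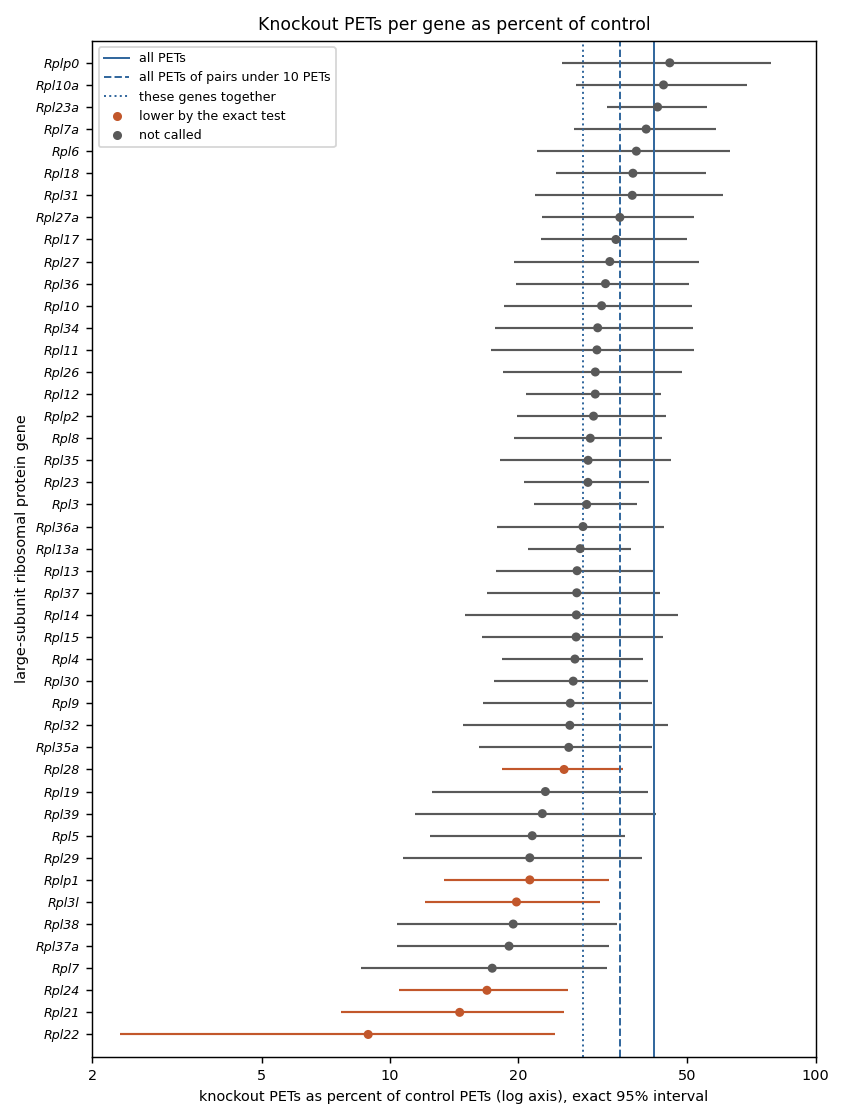
Knockout PETs as percent of control PETs for 45 of the 46 genes (log axis, lines are exact 95% intervals), with the genes called lower in orange and vertical lines for all PETs, for pairs under 10 PETs and for these genes together. Rpl22, Rpl21 and Rpl24 stand lowest, at 8.89%, 14.6% and 16.9%, and 42 of the 45 points lie left of the whole library's 41.8%.

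The most marked difference by the test was at Rpl24, whose product forms a bridge to the small subunit. It had 142 control and 24 knockout PETs (16.9%, 10.5 to 26.2, adjusted p = 0.000506 by the exact binomial test). The vM1 model of Rpl24 is long (chr16:55966388-56009026) and reached a pair of control anchors, one at its start (chr16:55963988-56004672) with no other protein-coding gene and one at its end (chr16:56004995-56015923) shared with Pcnp. Rpl30, another bridge protein, had 115 and 31 PETs (27.0%, 17.5 to 40.4) and was not called, and the intervals of the 2 genes overlapped. Rpl41 was not analysed here.

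Rpl21 and Rpl22 followed. Rpl21, a core protein, had 96 control and 14 knockout PETs (14.6%, 7.68 to 25.7, adjusted p = 0.00264 by the exact binomial test), and Rasl11a shares its anchor. Rpl22, a surface protein that binds RNA and has a paralog able to replace it, had 45 and 4 PETs (8.89%, 2.32 to 24.4, adjusted p = 0.0153 by the same exact test), the fewest of the 46 genes in knockout cells. None of the control PETs of Rpl21 or Rpl22 stayed within their chromosomes. Chd5 shares the Rpl22 anchor.

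The other 3 called genes were Rpl3l, Rplp1 and Rpl28. Rpl3l, the copy of Rpl3 made in striated muscle, had 116 and 23 PETs (19.8%, 12.1 to 31.2, adjusted p = 0.0174 by the exact binomial test). Its wider control anchor (chr17:24856481-24865072) covers the whole of Ndufb10, part of Rps2 and only the start of Rpl3l. Another control anchor (chr17:24871527-24875222) lies at the end of Rpl3l and is shared with Sepx1. The PETs were counted over both anchors and cannot be assigned among these genes. Rplp1 had 122 and 26 PETs (21.3%, 13.4 to 32.8, adjusted p = 0.0312 by the exact test) and shares its anchor with Kif23. Rpl28, a protein without a counterpart in budding yeast, had 191 and 49 PETs (25.7%, 18.3 to 35.3, adjusted p = 0.0440 by the exact test). Its anchor also holds Ube2s, Il11 and Tmem190.

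Rpl7, Rpl37a and Rpl38 were past the 2-fold line without passing the test. Rpl7 kept 17.4% (8.57 to 32.4), Rpl37a kept 19.05% (10.4 to 32.8) of 84 control PETs, with 16 in knockout cells, and Rpl38, whose loss in mice alters the patterning of vertebrae, kept 19.5% (10.4 to 34.2) of 77, with 15. Their adjusted p-values in the exact test were 0.0695, 0.0627 and 0.104. Their intervals overlapped each other and those of the 6 called genes, so the order among these genes is not resolved at this depth.

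The stalk proteins recruit the elongation factors, with Rplp0 and Rpl12 at the base and Rplp1 and Rplp2 as the flexible arms. Rpl12 had 135 and 41 PETs (30.4%, 20.9 to 43.4). Rplp2 had 113 and 34 (30.1%, 19.9 to 44.5). Rplp0 had 44 and 20 (45.5%, 25.4 to 78.8), the fewest control PETs of all 46 genes and the largest share kept. Its interval overlapped those of Rpl12 and Rplp2 and also that of Rplp1, so the 4 stalk genes were not separated. Together they had 414 and 121 PETs (29.2%, 23.7 to 35.9).

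Rpl5 and Rpl11 enter the ribosome with the smallest ribosomal RNA and also bind Mdm2 when assembly fails. Rpl5 had 88 and 19 PETs (21.6%, 12.4 to 35.7) and Rpl11 had 62 and 19 (30.6%, 17.3 to 51.9). Neither was called, and their intervals overlapped.

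The proteins next to the catalytic centre and the mobile stalk that releases tRNA comprised Rpl3, Rpl8, Rpl10 and Rpl10a. Rpl3 had 238 control and 69 knockout PETs (29.0%, 21.8 to 38.0), the second highest control count of the group, from an anchor of 16.9 kb with no other protein-coding gene (chr15:79899630-79916513). Rpl8 had 115 and 34, Rpl10 had 70 and 22, and Rpl10a had 66 and 29 (43.9%, 27.4 to 69.0). Rpl3 and Rpl10a overlapped in their intervals. Rpl10l, the copy of Rpl10 used in male meiosis, had no PET in either library, and a count of 0 allows up to 3 PETs.

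The exit tunnel and its rim are formed by Rpl4, Rpl17, Rpl19, Rpl23a, Rpl26, Rpl31, Rpl35 and Rpl39. Rpl23a, where the signal recognition particle docks, had 188 and 80 PETs (42.6%, 32.3 to 55.6), the highest knockout count of the 46 genes, from the widest anchor (60.9 kb, with 6 other genes). Rpl4 had 136 and 37 (27.2%, 18.4 to 39.4) and Rpl17 had 106 and 36 (34.0%, 22.6 to 49.99). These genes had PETs in both libraries, and none was called. The remaining 5 had 57 to 89 control PETs and 13 to 26 knockout PETs, with Rpl35 (89 and 26) the highest and Rpl39 (57 and 13) the lowest in control cells. Rpl39l, the testis copy of Rpl39, had none in either library.

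Most of the other core and surface proteins were near the group's median. Rpl13a, which leaves the human ribosome to silence inflammatory mRNAs, had the most control PETs of all, 243, and 68 in knockout cells (28.0%, 21.1 to 36.8, adjusted p = 0.0622 by the exact test). Rpl23 had 161 and 47, Rpl13 had 109 and 30, and Rpl7a had 100 and 40 (40.0%, 27.0 to 58.3). None of these 4 passed the test. The other 14 of this group, Rpl6, Rpl9, Rpl14, Rpl15, Rpl18, Rpl27, Rpl27a, Rpl29, Rpl32, Rpl34, Rpl35a, Rpl36, Rpl36a and Rpl37, ranged from 58 control PETs (Rpl6) to 98 (Rpl9 and Rpl27a) and from 13 knockout PETs (Rpl29) to 35 (Rpl18). Summed by role, the knockout share ran from 19.8% (12.1 to 31.2) at Rpl3l and 21.4% (15.7 to 28.7) at the bridge proteins to 32.6% (28.2 to 37.6) at the exit tunnel proteins, and every pair of role groups had overlapping intervals.

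**Figure D3:**
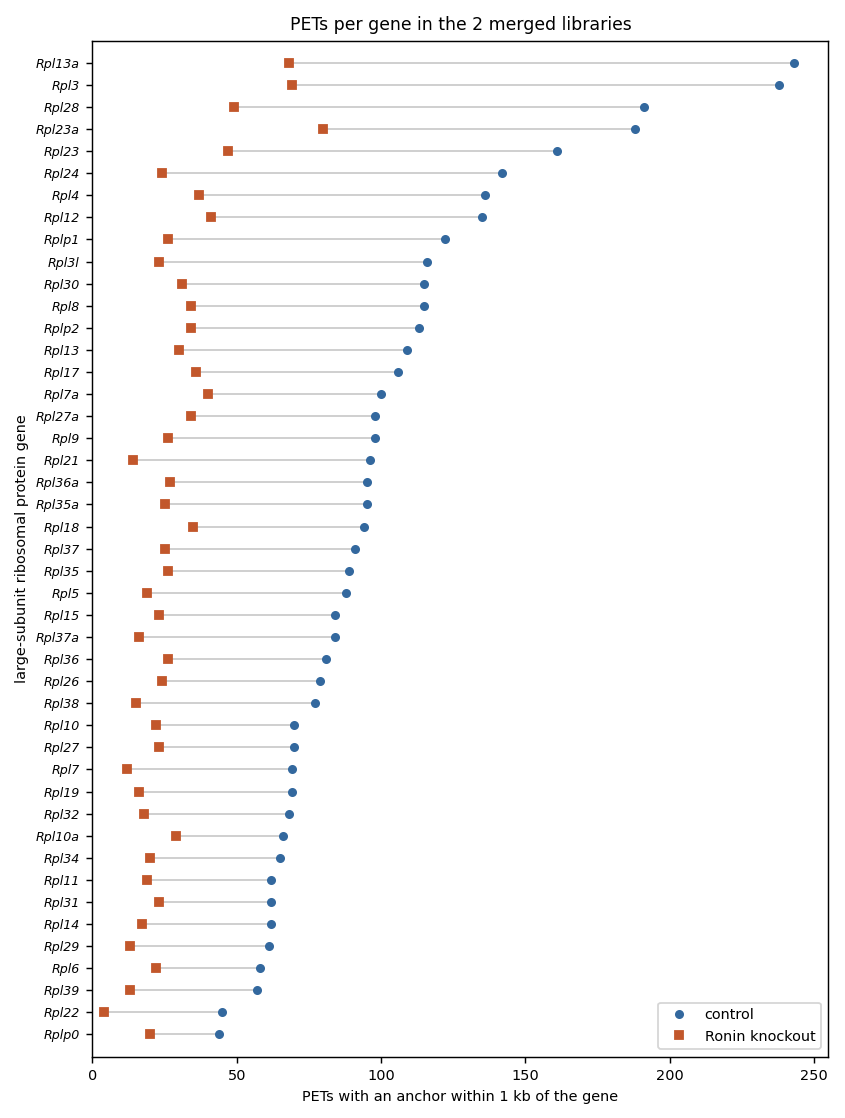
PETs with an anchor within 1 kb of 45 of the 46 genes in control (blue circles) and Ronin knockout cells (orange squares), ordered by control PETs. Every knockout point lies left of its control point, from Rpl13a (243 and 68) at the top to Rplp0 (44 and 20) at the bottom.

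A snoRNA gene lay inside 20 of the 48 genes (41.7%), 39 snoRNA genes in all, against 1.203% of all protein-coding genes. The 20 hosts had a median of 103 control PETs (57 to 243) and kept a median of 29.1% (14.6% to 42.6%). The 26 genes with PETs and no snoRNA gene had a median of 80 (44 to 191) and kept 27.4% (8.89% to 45.5%). The ranges of hosts and other genes overlapped over most of their length.

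Contacts among the large-subunit genes were few. Between different members there were 41 contacts in control (95% exact Poisson interval 29.4 to 55.6) and 12 in knockout cells (6.20 to 21.0), each of 1 PET, out of 1035 possible pairs. They joined 35 genes in control and 18 in knockout cells, and only the contact of Rpl23a with Rpl30 was present in both. Of the PET ends at these genes, 1.79% were joined to another member in control cells, while the genes held 1.47% of all PET ends, or 1.75% of those in pairs under 10 PETs. In knockout cells the corresponding shares were 1.84%, 0.9996% and 1.43%. The share joined to another member was above the members' share of all ends in both libraries, and nearer to it when pairs of 10 or more PETs are set aside. With 41 and 12 contacts the difference was not tested.

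**Figure D4:**
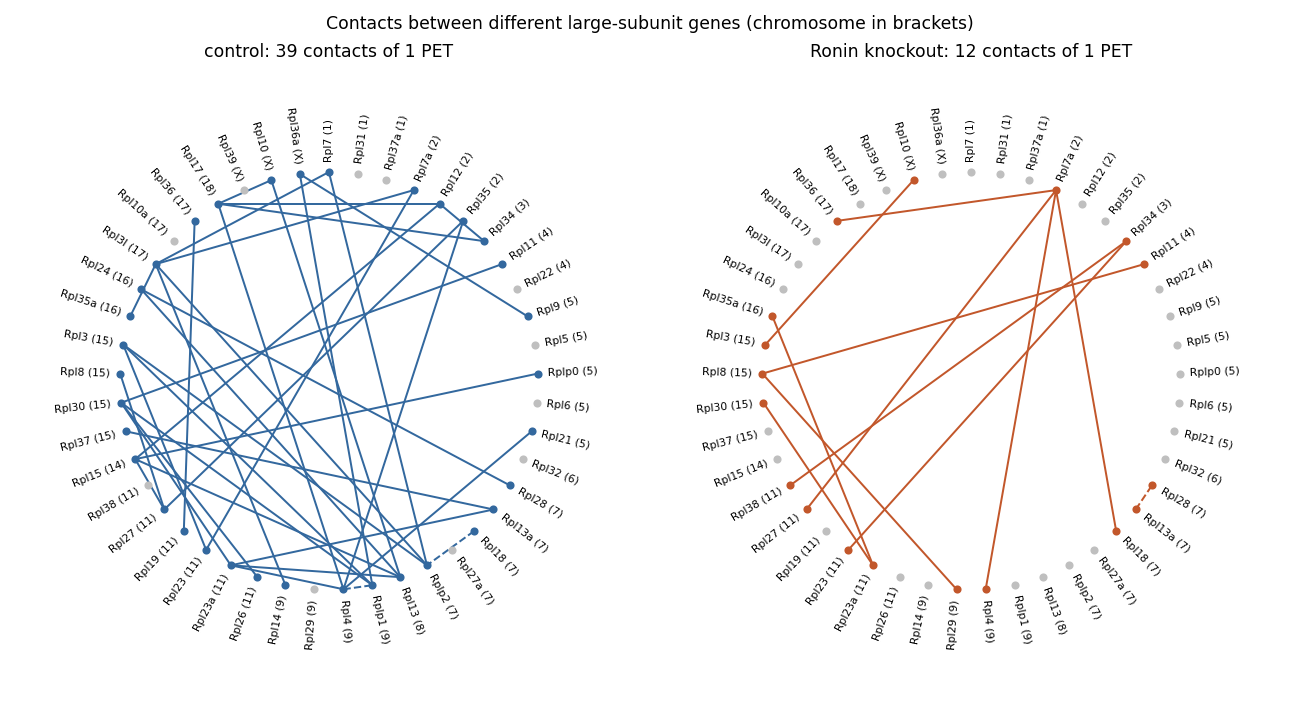
Contacts between different large-subunit genes in control (left, 39 of the 41) and Ronin knockout cells (right, 12), with 45 of the genes placed in chromosome order around a circle. Solid lines join different chromosomes, dashed lines the same chromosome, coloured dots mark genes with such a contact and every line is 1 PET.

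Within chromosomes, 3 pairs of members were in contact. Rpl18 met Rplp2 across 95.7 Mb and Rplp1 met Rpl4 across 2.27 Mb (centre to centre of the anchors) in control cells, and Rpl13a met Rpl28 across 47.6 Mb in knockout cells. No pair had more than 1 PET. The genes with the most member partners were Rpl3l with 6 and Rpl4 with 5 in control cells, and Rpl7a with 4 (Rpl4, Rpl18, Rpl27 and Rpl36) in knockout cells. The 6 partners of Rpl3l all met its anchor at chr17:24856481-24865072, which covers Ndufb10, part of Rps2 and only the start of Rpl3l. These contacts, counted among the 41, cannot be assigned among those genes. Rpl24, Rpl31 and Rpl3l each also had 1 control PET between 2 anchors of their own.

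Other genes of the translation machinery were also among the partners, and their shares were not tested against those of all ends. Small-subunit genes were at the other end of 62 control interactions (1.403% of the members' interactions, 1.24% of all ends) and 16 knockout interactions (1.26%, 1.01%). Ribosome biogenesis genes were at 32 (0.724%, 0.711%) and 16 (1.26%, 0.730%), and the mitochondrial ribosome at 29 (0.656%, 0.844%) and 11 (0.865%, 0.953%). None of these interactions had more than 3 PETs.

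Partners were spread widely. The members met 3154 other anchors in control cells, 2398 of them through 1 member only and 293 through at least 3. Of the other ends, 67.7% lay at the start of a protein-coding gene, the same as over all ends (67.7%), and in knockout cells 72.5% against 70.9%. The anchor met by most members was at Gm10800 on chromosome 2 (19 members in control, 9 in knockout cells), which had 1776 partners over the whole control library. Next were the anchor of Malat1 and Neat1, long non-coding RNAs of nuclear bodies, with 13 members in control cells (618 partners in all) and a histone gene cluster on chromosome 13 (from Hist1h1a to Hist1h4a) with 10 in control and 4 in knockout cells (670 partners in all). In knockout cells the histone cluster at Hist1h4j and Nop58, a snoRNP core protein gene, each met 5 members. These anchors had many partners of every kind, so their ties are not particular to ribosomal protein genes by any test made here.

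Most interactions rested on 1 PET. In control cells 4322 of the 4420 interactions of these genes had 1 PET, 98 had at least 2 and 10 had at least 3. In knockout cells 1257 of 1272 had 1 PET, 15 had at least 2 and 2 had at least 3. The ratio of knockout to control interactions was 15.3% (8.25 to 26.5) for those of at least 2 PETs and 29.1% (27.3 to 31.0) for those of 1 PET. These intervals did not overlap. The same cut of 2 PETs was applied to libraries of unequal depth, and fewer pairs reach it at lower depth. The gap between these ratios therefore cannot show which contacts were lost more. Over the whole library the ratio for interactions of at least 2 PETs was 42.9% (39.7 to 46.3). That set includes the 218 control and 171 knockout pairs of 10 or more PETs, so PETs per interaction were not matched.

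The strongest pair joined Rpl28 on chromosome 7 to the anchor of Ankrd11, a chromatin regulator gene, on chromosome 8. It had 14 PETs in control (partner chr8:125444156-125574303) and 7 in knockout cells (partner chr8:125524986-125574551), and it shared at most 77 identical bases. Rpl34 met a 1.13 kb anchor without an annotated gene (chr1:88212803-88213934) with 7 control PETs and none in knockout cells. The Rpl34 anchor and this partner shared 81 identical bases, 8.69 kb from the gene, and the part of that stretch in the count was not tested. In knockout cells Rpl3 met Gabpb1, which encodes a subunit of an activator of housekeeping promoters, with 3 PETs.

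At 3 control PETs were Rpl38 with Lmna (lamin A), Rpl24 with Wdr1, Rpl30 with the anchor of Ppp1r10, Rpl36a with that of Ash2l and Bag4, Rpl23a and Rpl29 each with the histone cluster at Hist1h2ag, Rpl28 with Malat1 and Neat1, and Rpl23 with Gm10800. Of these, Rpl24 with Wdr1 and Rpl28 with Malat1 and Neat1 joined anchors with identical stretches of 102 and 130 bases. Pairs with such a stretch of at least 100 bases held 1.25% of the members' control PETs and 1.70% of their knockout PETs, and without them the ratio was 28.3% (26.6 to 30.2).

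Nearly all contacts of these genes joined different chromosomes. The interchromosomal share of their PETs was 93.1% (92.4 to 93.9) before and 92.0% (90.4 to 93.5) after the knockout, against 84.2% and 81.4% over all PETs, or 89.9% and 88.0% over pairs under 10 PETs. Random ligation of unrelated fragments also yields interchromosomal PETs, and its part in these counts was not tested. For its Ronin data the paper set interchromosomal interactions aside because they are reported to be noisier. Within chromosomes, the members' contacts were also long. Their median distances, 23.4 Mb (control) and 21.1 Mb (knockout), compared with 10.3 Mb and 4.55 Mb over all interactions within chromosomes, and 10.9% of the members' control contacts were under 100 kb against 23.7% over all.

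Of the contacts over less than 1 Mb, 6 had 2 PETs in control cells, each to an anchor at another gene, with gaps between the anchors from 2.89 kb (Rpl3 and Syngr1) to 506.6 kb (Rplp1 and Tle3). The others joined Rpl10 to Flna (filamin A), Rpl15 to Nr1d2, Rplp2 to Pddc1 and Rpl13a to Nosip and Rcn3. In knockout cells Rpl13a met Pih1d1 and Slc17a7 across a gap of 5.69 kb with 2 PETs. PETs within chromosomes per gene ran from 0 to 28 (median 6, Rpl13a highest) among control PETs and from 0 to 14 (median 1.5) among knockout PETs. They were fewer in knockout cells at 42 genes and more at 2 (Rplp0, 1 and 3, and Rpl21, 0 and 2). With within-chromosome PETs alone, the exact test called none of the 46 genes lower or higher, and only 16 of 9726 genes lower over the genome.

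Few contacts were found again. Of the 4420 control interactions of these genes, 68 (1.54%, 1.197 to 1.95) had both anchors overlapped by a knockout interaction, against 1.36% (1.30 to 1.42) over all. For those of at least 2 PETs it was 12 of 98 (12.2%, 6.49 to 20.4) against 26.3% (24.5 to 28.2), intervals that did not overlap. The interactions behind the 26.3% include the 218 control pairs of 10 or more PETs, while 10 of the 98 had at least 3 PETs. The 12 were Rpl28 with Ankrd11, Rpl10 with Flna, Rpl12 with Rad51c and Tex14, Rpl13 with Znfx1, Rpl23 with Kdm4c, Rpl37 with Asxl2 and Kif3c, Rplp1 with Dnajc21, Rpl30 with an anchor at no protein-coding gene, and Rpl3, Rpl8, Rpl13a and Rpl23 each with Gm10800. The Gm10800 anchor, 1.38 kb wide, had 1776 control partners in all. In the authors' hypergeometric test its control pairs had adjusted p of 0.0212 (Rpl3), 0.0193 (Rpl13a), 0.148 (Rpl23) and 0.182 (Rpl8). Its knockout pairs with Rpl3, Rpl8 and Rpl13a had adjusted p of 0.141, 0.281 and 0.155 in that test. Within chromosomes 6 of 304 were found again (1.97%, 0.728 to 4.25), at Rpl10, Rpl13, Rpl13a, Rpl24 and Rpl3l, against 4.82% (4.45 to 5.21) over all, again without overlap of the intervals. Neither comparison was matched for PETs per interaction, so a difference particular to these genes was not tested.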

How the data were processed

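RNA Pol II ChIA-PET was made from mouse ESCs in 2 groups, control and Ronin knockout. Linkers were removed by the authors using cutadapt, and they aligned each mate to mm9 with Bowtie 1.1.1, called peaks with MACS 1.4.2 and kept PETs whose ends both lay in peaks. Before deposit they merged 2 experiments per group. The deposited files hold the count of PETs for each pair of peaks, the PET count of each peak, a hypergeometric p-value with its adjusted value for each pair, and a distance between peaks, a signed score given by the authors also for pairs on different chromosomes. The adjusted p-values entered 1 alternative, are quoted for pairs with Gm10800, and entered no other result above. Distances were recomputed from the coordinates, between anchor centres. File starts count from 0 and were converted to count from 1.

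Interactions within and between chromosomes, of 1 PET or more, were assigned to every GENCODE vM1 protein-coding gene within 1 kb of either anchor. An anchor at several genes counted for each, and sums over a list counted an interaction once. An exact two-sided binomial test (scipy) was run per gene on knockout among all PETs with a null share of 29.5%, with Benjamini-Hochberg adjustment over 12808 genes and a threshold of 0.05. Ratios, shares and counts have exact 95% intervals. A fold of 2 was read among genes with at least 20 PETs. Intervals and tests cover counting error only. The authors had collapsed PETs that matched in position and strand at both ends, but without molecular identifiers PETs need not be independent molecules. The depth was 156097 PETs in control and 65276 in knockout cells. Identical bases were searched between anchors in the mm9 genome on both strands, and promoters came from RefSeq (GRCm38.p6). Statistics were tested on simulated data.

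Named in full were the genes with most PETs, those called or past the fold, those without PETs, and the ends of each role group. Values of 1 member and of some partner genes are not reported here on their own, and sums and counts include them. The genes, lists and motifs were chosen with earlier results of these data known. The settings tried comprised 30 alternatives and 5 more chosen after seeing the data. Python 3.11.15, numpy 2.4.6, pandas 2.3.3, scipy 1.17.1, pysam 0.24.0 and matplotlib 3.10.9 were used.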

Additional observations from a re-analysis of the deposited data

How the results depend on the processing

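Of 75 values recomputed for the large-subunit genes, 53 kept within the spread or 1.5 times of the value above, none reversed and 22 moved. The 53 include the counts of genes called higher or past 2-fold higher, which were 0 above and stayed 0 in every setting, so 53 is not a measure of stability. Placing anchors within 5 kb of the gene, over the gene or at its start called the same 6 genes lower and the same 7 past 2-fold. The number called lower by the exact test fell from 6 to 2 with the share from pairs under 10 PETs (Rpl21 and Rpl24, chosen after seeing the data), to 1 with each interaction counted once (Rpl24), and to 0 with interactions of at least 2 PETs, within chromosomes, and within chromosomes at the authors' adjusted p under 0.05, where 2, 3 and 2 genes had at least 20 PETs. It rose to 46 with a null share of 0.5, which ignores the unequal library totals. The number past 2-fold lower fell from 7 to 3, 3, 2, 0 and 0 under those settings and rose to 46 with the null share of 0.5. With PETs between chromosomes alone, also chosen after seeing the data, 5 were called, with Rpl13a added and Rpl28 and Rplp1 lost.

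Over all genes, 283 were called lower and 249 higher. The numbers were 105 and 365 with the share from pairs under 10 PETs, 88 and 248 with each interaction counted once, 142 and 41 with at least 2 PETs, 16 and 21 within chromosomes, 14 and 20 within chromosomes at the adjusted p, and 5461 and 94 with the null share of 0.5.

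The PETs kept by the large-subunit genes moved from 28.5% to 16.3% (11.1 to 23.2) with at least 2 PETs (library 72.9%). They moved to 33.0% within chromosomes (library 49.2%) and to 38.1% at the adjusted p (library 50.2%). The interval of the last, up to 48.1%, lies below the 50.2% of the same setting but includes the 41.8% of all PETs. The 72.9% includes the pairs of 10 or more PETs, and the cut of 2 PETs was not scaled to the unequal depth. Median partners moved from 89 and 25 to 1.5 and 0 with at least 2 PETs and to 6 and 1.5 within chromosomes. The interchromosomal share in knockout cells moved from 92.0% to 88.9% with at least 2 PETs. Control interactions found again moved from 1.54% to 2.15% with anchors extended by 5 kb and to 4.08% with at least 2 PETs in both libraries.

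No paired analysis was possible because each group is 1 merged library. Leaving out a replicate was not possible for the same reason. Depth limits the genes with few PETs, and a count of 0 allows up to 3.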
